A study of Homo sapiens with 10 samples.

Results

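The genes described here build cholesterol and fatty acids or control how much of them a cell makes, takes up, stores and exports. They are 38 symbols listed for these pathways and matched to the counted Ensembl identifiers through GENCODE 29, of 63677 identifiers in all. The match found 37 of them. The expression of ACACA, which makes malonyl-CoA for fatty acid synthesis, is not analysed here, while its promoter is searched below. The symbols fall into 4 groups, with 19 genes of sterol synthesis, 5 SREBP regulators, 7 genes of sterol uptake, storage and efflux, and 7 genes of fatty acid synthesis. The cells are RS4;11, an established line of BCP-ALL, an acute leukemia of B-cell precursors. The 5 VENins lines were made insensitive to venetoclax (VEN), an inhibitor of the survival protein BCL-2, by stepwise rising concentrations and were kept under the drug, which was washed out before analysis. The 5 VENsens lines were carried in parallel with the solvent DMSO. All lines stem from this 1 cell line, each gave 1 RNA library, and p-values measure the spread between such separately kept cultures, so that they do not extend to other leukemias. In the main test, which includes the line number, this is the spread of differences between VENins and VENsens lines of the same number.

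Cells make sterols from acetyl-CoA, first as mevalonate and isoprenoids, then as squalene, which is closed into lanosterol and trimmed to cholesterol. The transcription factors encoded by SREBF1 and SREBF2, called SREBPs, are held in the endoplasmic reticulum by SCAP and INSIG proteins while sterols are plentiful. When sterols run low, SCAP carries them to the Golgi, where they are cut, and the released part enters the nucleus and drives genes of sterol and fatty acid synthesis. The liver X receptors NR1H2 and NR1H3 sense oxidised sterols and drive export through ABCA1 and ABCG1. Dividing lymphoid cells draw on these pathways for new membrane.

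Levels are given in CPM, the counts on a gene when a library's total, adjusted by TMM scaling factors, is set to 1000000. The gene counts were 20631907 to 28323643 per VENsens and 21145316 to 25394653 per VENins library. At this depth all 37 matched genes passed the filter on low counts, so that none is missing from the comparison for that reason. Counts per library were lowest for ABCG1 (10 to 22), CYP51A1 (55 to 102) and ABCA1 (61 to 103), whose values are the least certain. In bulk RNA, fewer cells that express a gene and less RNA per cell cannot be told apart.

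Markers of the labelled cell type were present. Of 10 B-lineage precursor markers all 10 were tested, with a summed level of 3136 to 3676 CPM per library and PAX5 as the gene with the most counts in VENsens and IGLL1 in VENins lines on average, whereas DNTT and BLNK were low. DNTT stood at 27.3 CPM in VENins line 4 and 1.08 to 3.38 CPM in the other VENins lines, and BLNK at 9.55 and 1.18 to 3.09 CPM, against 3.05 to 8.31 and 2.12 to 3.94 CPM in VENsens lines. Over the 10 markers the median log2 fold change was 0.066, and 7 lay above 0, among them CD79B at 0.24, IGLL1 at 0.17 and VPREB1 at 0.14, each with an unadjusted p under 0.05. The 7 also include HOXA9 at 0.087 and MEIS1 at 0.043, which are on the list but are not confined to the B lineage. PAX5, a B-lineage transcription factor, was the 1 marker that passed the test and was lower in VENins lines, at 783 ± 42.9 CPM (± SD, n = 5) for VENsens lines and 631 ± 34.7 CPM for VENins lines, with a log2 fold change of -0.31 (SE 0.053, adjusted p = 0.0272). Of 8 markers of T and NK cells 2 were tested, summed to 46.2 to 65.0 CPM per library, nearly all NKG7, with KLRD1 at 0. Of 9 myeloid markers 4 were tested, summed to 12.5 to 18.3 CPM, with CSF1R the most abundant and S100A8 and S100A9 at 0. CSF1R had a log2 fold change of 0.23 (SE 0.097, adjusted p = 0.261 in edgeR). CD14, LYZ and ITGAM had -0.17 (SE 0.30), -0.47 (SE 0.30) and -0.10 (SE 0.11). Of the megakaryocyte markers, PF4 was at 0, and ITGA2B had a log2 fold change of -0.48 (SE 0.099, adjusted p = 0.061) in edgeR, whose part in the values below was not tested, while GP9 had a log2 fold change of -0.066 (SE 0.14, adjusted p = 0.86). Of 7 stromal and epithelial markers 1 was tested, COL1A1, summed to 1.93 to 3.38 CPM, with EPCAM, KRT18 and PECAM1 at 0.

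VENsens line 1 and VENins line 5 stood apart for these genes, the latter over all genes too, where VENsens line 2 was the VENsens line farthest from the others. Chi-square per degree of freedom, a measure of how far counts of libraries differ, was 13.4 to 14.4 between VENins line 5 and each other VENins line and 4.33 to 9.75 among those. Between VENsens line 2 and each other VENsens line it was 5.66 to 9.89, and among those 1.93 to 6.08. Over 9973 genes the deviations of a VENsens and a VENins line from their condition means correlated between -0.401 (VENsens line 2 and VENins line 5) and 0.482 (VENsens line 1 and VENins line 5), with 0.441 for VENsens line 2 and VENins line 1. VENsens line 1 was the lowest VENsens line for 21 of the 37 genes (56.8%), against 22.5% of all tested genes, and for 14 of the 19 sterol synthesis genes. VENins line 5 was the lowest VENins line for 19 of the 37 (51.4%), against 29.3% of all tested genes, and the highest for 10 (27.0%), against 28.7%. VENsens lines 2 and 4 and VENins line 1 were each the highest of their condition for 35.1% of the 37. The shares of all tested genes were 29.1%, 13.2% and 19.0%. Averaged over the 19 sterol synthesis genes, the log2 CPM minus its average across the 10 libraries was -0.11, 0.037, 0.081, 0.095 and 0.11 in VENsens lines 1 to 5 and 0.024, 0.031, -0.085, -0.059 and -0.13 in VENins lines 1 to 5. VENsens line 1 thus lay among the VENins lines, VENins lines 1 and 2 lay close to VENsens line 2, and the conditions overlapped. For the SREBP regulators the averages were 0.031, 0.065, 0.031, 0.089 and 0.026 in VENsens and 0.012, -0.043, -0.14, -0.11 and 0.044 in VENins lines, where VENins line 5 lay within the VENsens range and the other VENins lines below it. For fatty acid synthesis they were -0.023, 0.057, 0.065, 0.098 and 0.098 in VENsens and -0.010, -0.053, -0.14, -0.063 and -0.031 in VENins lines, and only VENsens line 1 and VENins line 1 crossed, with VENins line 5 just below them. For sterol uptake, storage and efflux, VENsens line 2 was the highest at 0.23 and VENins line 5 the lowest at -0.15, with the other lines mixed.

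**Figure D1:**
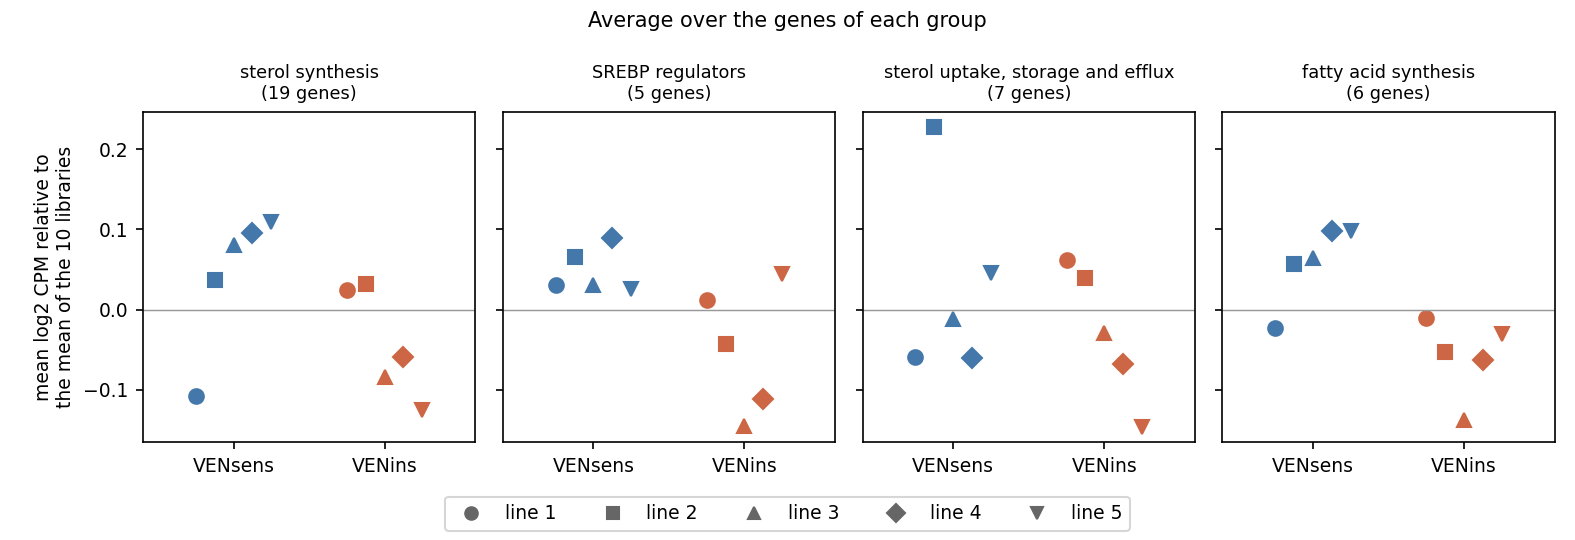
Mean log2 CPM of the tested genes of each group after subtracting each gene's average across the 10 libraries (vertical axis), in VENsens (blue) and VENins (orange) lines, with 1 symbol per line. VENsens line 1 and VENins line 5 are the lowest lines of their conditions for sterol synthesis, and VENins line 5 is the highest VENins line for the SREBP regulators.

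The comparison of VENins with VENsens lines asks which of these genes differ once cells have become insensitive to VEN. Most of them were slightly lower in VENins lines, and none of the 37 passed edgeR's quasi-likelihood test with Benjamini-Hochberg adjustment over 16756 genes. The same test called 33 genes (0.197%), 6 higher and 27 lower. At an unadjusted p under 0.05, which 16.2% of all tested genes had, 12 of the 37 (32.4%) were lower and 0 were higher, against 8.38% lower and 7.79% higher among all tested genes. The lower share among genes of 10 CPM or more rose with transcript length, as given below, and 8.38% does not allow for this. The 12 became 4 to 13 with the lines of each number left out in turn, against 4.44% to 8.77% of all genes. With a single line left out and no line number they became 5 to 12, against 6.96% to 10.4%. DESeq2 with the line number in the model, the tool and pairing named in the study's methods, called 2 of the 37, SREBF2 and FASN, both lower, against 1.31% of all genes (0.889% lower). Without the line number it called 3, SREBF2, MYLIP and FASN, against 4.33% (2.27% lower), and edgeR without it called 1, SREBF2, against 0.889% (0.597% lower). DESeq2 left 5198 of the 16756 genes without an adjusted p with the line number, among them CYP51A1, ABCA1 and ABCG1. Without the line number it left 3579, among them ABCG1. These genes could not be called but are counted in its shares. With a trend on transcript length and GC content removed, described below, edgeR called 0 with the line number, against 0.692% (0.388% lower), and 2 without it, MYLIP and FASN, against 2.08% (1.04% lower). With no filter on low counts, over 32884 genes, edgeR called 4, HMGCS1, LSS, SREBF2 and FASN, against 2.02% (1.32% lower).

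Of the 37 genes, 32 had a log2 fold change under 0, against 48.9% of all tested genes, but the differences were small. The number was 33, 32, 27, 27 and 26 without the lines numbered 1, 2, 3, 4 and 5, and 27 to 33 with a single line left out and no line number. Of the 19 sterol synthesis genes 17 were lower with all lines and 10 without the lines numbered 5. The median was -0.057 over the 37 and 0.0035 over all tested genes. The group medians were -0.052 for sterol synthesis, -0.057 for the SREBP regulators, -0.056 for sterol uptake, storage and efflux and -0.10 for fatty acid synthesis. With the length and GC trend removed, described below, they were -0.052, -0.057, -0.010 and -0.039 in the same order. In 3 genes, SREBF2, FASN and MYLIP, every VENins line lay below every VENsens line, which 2.3% of all tested genes showed. In 0 of the 37 did every VENins line lie above every VENsens line (2.36% of all genes), so that 3 did not overlap (4.66% of all genes), and 5 were lower in VENins lines in all 5 numbered pairs (6.66% of all genes). Without VENins line 5 and without the line number in the model, a setting added after the values were seen, edgeR called 5 of the 37, LSS, SREBF1, SREBF2, FASN and FADS2, all lower, and 502 genes in all (2.97%, 1.59% lower). Of the other 9 fits that leave out a single line, that without VENins line 4 called 3 of the 37, SREBF2, MYLIP and FASN (783 genes in all, 4.65%, 2.94% lower), and the others 0 or 1 (18 to 178 genes in all, 0.106% to 1.06%). Over the 24 alternatives 18 of the 37 took both signs. The 12 genes with a small unadjusted p are spread over the groups, with 6 of 19 in sterol synthesis, 2 of 5 among the regulators, 1 of 7 in uptake, storage and efflux and 3 of 6 in fatty acid synthesis.

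**Figure D2:**
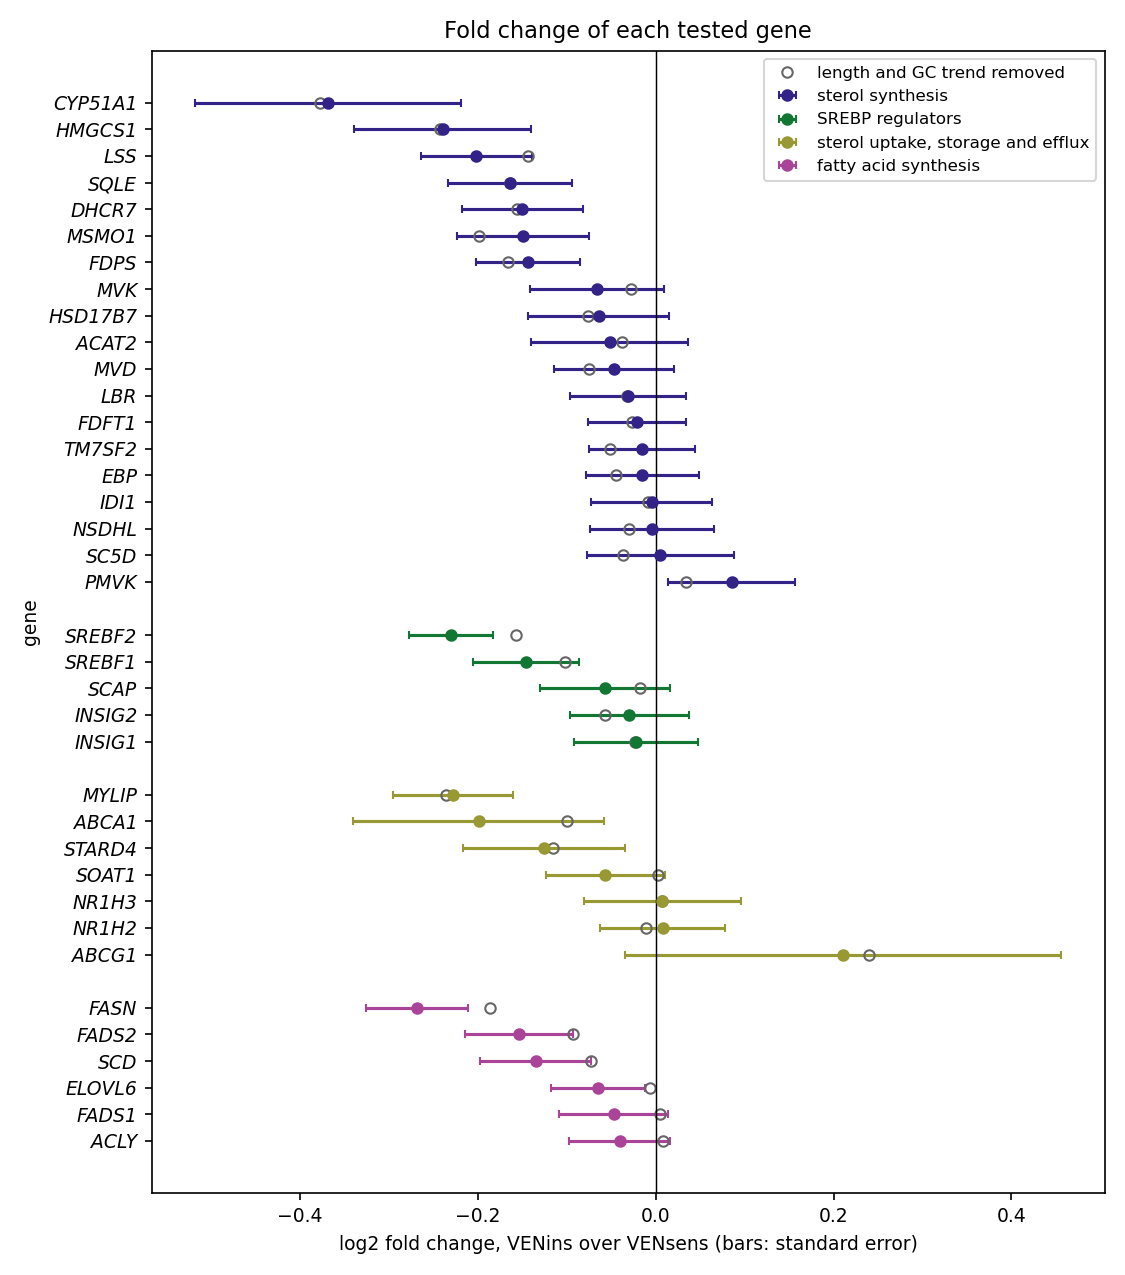
Log2 fold change of each of the 37 tested genes, VENins over VENsens (horizontal axis), by group, with filled points for edgeR's estimate, bars for its standard error and open circles for the estimate after a trend on transcript length and GC content was removed. Values run from -0.37 for CYP51A1 to 0.21 for ABCG1, and 32 of the filled points lie left of 0.

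Among the regulators, SREBF2 (ENSG00000198911, chromosome 22) encodes the SREBP that acts mainly on sterol genes. Its level was 756, 728, 705, 759 and 743 CPM in VENsens lines 1 to 5 and 644, 635, 626, 641 and 602 CPM in VENins lines 1 to 5. All VENins lines lay below all VENsens lines, with a narrow spread within each condition. The means were 738 ± 22.4 CPM (± SD, n = 5) for VENsens lines and 629 ± 17.0 CPM for VENins lines, a log2 fold change of -0.23 (SE 0.048, adjusted p = 0.061) in edgeR. In DESeq2 with the line number the adjusted p was 0.00158 at a log2 fold change of -0.23, and over 24 alternative settings it ranged between 2.53e-06 and 0.392, under 0.05 in 11 of them. In edgeR without the line number it was 0.0159 with all lines, and 0.0752, 0.0662 and 0.0520 without VENsens line 4, VENsens line 5 and VENins line 3.

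SREBPs bind sterol regulatory elements, often beside CCAAT boxes bound by NF-Y, so the promoters of genes with an unadjusted p under 0.05 are shown where such letters occur. RefSeq promoter windows (GRCh38.p14) were found for 33 of the 38 symbols, in 46 windows, without FASN, ABCG1, ACAT2, FDFT1 and SQLE, and the 250 bases before each start were searched on both strands beside 35116 windows of 27305 genes. The element TCACNCCAC was found in 1 of the 33 genes, SREBF2, and in 1.09% of all genes. Its shorter core CACNCCAC, which is contained in it, was found in 7 of the 33 (21.2%), ABCA1, ACACA, IDI1, INSIG1, SC5D, SCD and SREBF2, and in 5.89% of all genes. CCAAT was found in 22 of the 33 (66.7%) and in 37.0% of all genes. GGGCGG, a GC box, was found in 31 (93.9%) and in 46.2% of all genes, and the E-box CACGTG in 4 (12.1%) and in 7.73% of all genes. The 27305 genes were not limited to those expressed in these cells. They are thus an unlike set, and the shares do not show a trait particular to these pathways. The stretches lie at chr22:41832964-41833011 on the plus strand for SREBF2, chr6:16128969-16129030 on the plus strand for MYLIP, chr21:46228912-46228932 on the minus strand for LSS, chr1:155308682-155308827 on the plus strand for FDPS, chr5:43313500-43313575 on the minus strand for HMGCS1, chr11:71448429-71448495 on the minus strand for DHCR7 and chr10:100346996-100347134 on the plus strand for SCD. They are written 5′ to 3′ on the gene's strand, with capitals for matches to TCACNCCAC, CACNCCAC or CCAAT on either strand.
SREBF2: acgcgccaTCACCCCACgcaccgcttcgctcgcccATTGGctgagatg
MYLIP: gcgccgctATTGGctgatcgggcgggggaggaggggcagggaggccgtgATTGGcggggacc
LSS: gcgctctgATTGGttgcgtgg
FDPS: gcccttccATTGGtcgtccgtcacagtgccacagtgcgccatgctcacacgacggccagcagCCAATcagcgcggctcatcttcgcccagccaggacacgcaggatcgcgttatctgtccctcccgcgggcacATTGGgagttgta
HMGCS1: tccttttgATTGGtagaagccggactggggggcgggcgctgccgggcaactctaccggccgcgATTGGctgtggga
DHCR7: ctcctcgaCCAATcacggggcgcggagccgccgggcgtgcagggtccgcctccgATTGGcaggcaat
SCD: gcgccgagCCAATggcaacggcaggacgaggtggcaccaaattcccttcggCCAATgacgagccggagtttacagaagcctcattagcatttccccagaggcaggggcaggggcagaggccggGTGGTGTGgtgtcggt
In the SREBF2 stretch the first capitals are the sterol regulatory element, which begins 133 bases before the start, and the second a CCAAT box read on the other strand. In the SCD stretch the last capitals are the shorter core on the other strand, and all other capitals are CCAAT boxes on either strand. A match describes letters only and shows no binding.

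SREBF1 (ENSG00000072310, chromosome 17) encodes the SREBP that acts mainly on fatty acid genes. It stood at 316, 287, 308, 317 and 304 CPM in VENsens lines 1 to 5 and 278, 267, 251, 267 and 326 CPM in VENins lines 1 to 5. VENins lines 1 to 4 lay below all VENsens lines, while VENins line 5 was the highest of the 10 libraries. The test gave a log2 fold change of -0.15 (SE 0.060, adjusted p = 0.248). Without VENins line 5, and without the line number in the model, the log2 fold change was -0.21 and the adjusted p 0.0224, and over the 24 alternatives the adjusted p ranged between 0.0224 and 0.584. SREBF1 shares 556 exonic bases with RAI1 on the other strand, at 61.7 CPM. Reads there cannot be assigned to either without strand, so the counts of SREBF1 are uncertain.

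SCAP, the escort of SREBPs, showed the same line apart, at 102 CPM in VENins line 5 against 79.8 to 88.6 CPM in VENsens lines. Its log2 fold change was -0.057 (SE 0.073, adjusted p = 0.753) with all lines. In edgeR without the line number it was -0.044 (adjusted p = 0.835) with all lines and -0.14 (adjusted p = 0.173) without VENins line 5. Over the 24 alternatives it ranged from -0.15 to 0.0057, with adjusted p-values between 0.173 and 0.997. INSIG1 (ENSG00000186480, chromosome 7), a retention protein that is itself an SREBP target, was the regulator with the highest level per transcript length. It stood at 656, 839, 718, 739 and 747 CPM in VENsens lines 1 to 5 and 832, 813, 688, 608 and 714 CPM in VENins lines 1 to 5. The conditions overlapped almost fully, VENsens line 2 and VENins lines 1 and 2 were highest and VENins line 4 was lowest. Its log2 fold change was -0.023 (SE 0.070), and it was 0.042 without the lines numbered 4. INSIG2, a related retention protein at 32.8 CPM in VENsens lines, had a log2 fold change of -0.030 (SE 0.067).

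**Figure D3:**
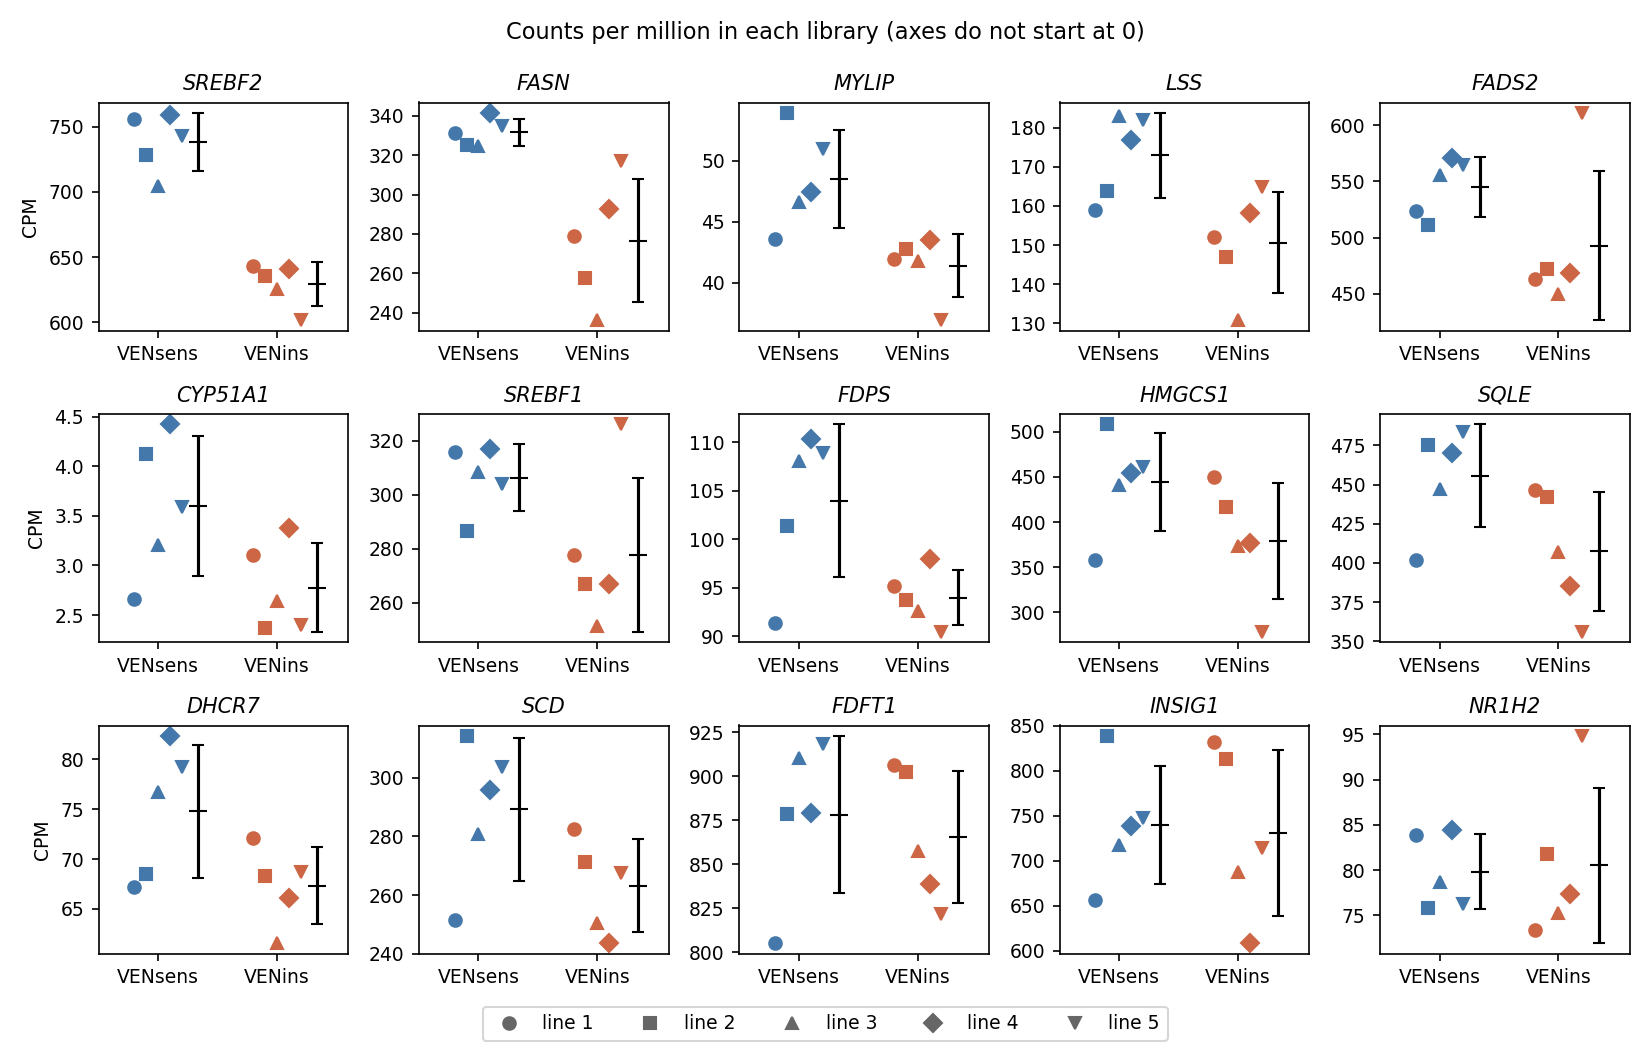
CPM (vertical axes, not starting at 0) of 15 genes in each VENsens (blue) and VENins (orange) line, with 1 symbol per line and, beside them, the mean with a bar of 1 SD (n = 5). The conditions separate for SREBF2, FASN and MYLIP, VENins line 5 is the highest of the 10 libraries for FADS2, SREBF1 and NR1H2, and VENsens line 1 is the lowest VENsens line for HMGCS1, SQLE, FDPS and FDFT1.

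Sterol synthesis starts with ACAT2, which joins acetyl-CoA units, and HMGCS1 (ENSG00000112972, chromosome 5), which makes HMG-CoA. HMGCS1 stood at 358, 508, 441, 454 and 461 CPM in VENsens lines 1 to 5 and 450.2, 416, 373, 377 and 279 CPM in VENins lines 1 to 5. VENsens line 1 was low and VENins line 5 was the lowest of all, while VENins lines 1 to 4 lay within the VENsens range. The test gave a log2 fold change of -0.24 (SE 0.099, adjusted p = 0.256). Without the lines numbered 1 the log2 fold change was -0.38 and the adjusted p 0.041, and over the 24 alternatives the adjusted p ranged between 0.00251 and 0.654. Without the lines numbered 5 the log2 fold change was -0.12 (adjusted p = 0.533), and without VENins line 5 and the line number -0.14. ACAT2 had a log2 fold change of -0.052 (SE 0.088), and over the 24 alternatives it ranged from -0.13 without the lines numbered 1 to 0.052 without those numbered 5. It shares 397 exonic bases with TCP1 on the other strand, which stood at 293 CPM, so the counts of ACAT2 are uncertain.

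The mevalonate enzymes that follow differed little. MVK, PMVK and MVD, which phosphorylate and decarboxylate mevalonate, and IDI1, which isomerises the isoprenoid unit, had log2 fold changes of -0.066, 0.086, -0.047 and -0.0046. Their SEs were 0.076, 0.072, 0.068 and 0.068, and PMVK was the 1 gene of this stretch with a value above 0. MVK shares 306 exonic bases with MMAB on the other strand, at 57.2 CPM against 42.1 CPM for MVK, so its counts are uncertain. FDPS (ENSG00000160752, chromosome 1), which makes farnesyl diphosphate, stood at 91.4, 101, 108, 110.3 and 109 CPM in VENsens lines 1 to 5 and 95.2, 93.8, 92.6, 98.0 and 90.5 CPM in VENins lines 1 to 5. VENsens lines 2 to 5 lay above all VENins lines, and VENsens line 1 lay among the VENins lines. In edgeR this amounted to a log2 fold change of -0.14 (SE 0.059, adjusted p = 0.248). FDPS shares 693 exonic bases with RUSC1-AS1 on the other strand, and 8 pseudogenes named after it summed to 45.6 CPM against 99.0 CPM for the gene, so its counts are uncertain.

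FDFT1 (ENSG00000079459, chromosome 8), which joins farnesyl units into squalene, had the highest level per transcript length of all 37 genes. It stood at 805, 879, 910.3, 879 and 919 CPM in VENsens lines 1 to 5 and 906, 903, 858, 839 and 822 CPM in VENins lines 1 to 5. The conditions overlapped, and the lowest library was VENsens line 1. The log2 fold change was -0.021 (SE 0.055, adjusted p = 0.894), and without the lines numbered 5 it was 0.014. SQLE (ENSG00000104549, chromosome 8) oxidises squalene, a rate-limiting step. Its level was 402, 475, 447, 470.0 and 483 CPM in VENsens lines 1 to 5 and 446, 442, 407, 385 and 356 CPM in VENins lines 1 to 5. VENins lines 4 and 5 lay below all VENsens lines, VENsens line 1 was the lowest VENsens line, and the conditions overlapped. In edgeR this amounted to a log2 fold change of -0.16 (SE 0.069, adjusted p = 0.266). It was -0.24 (adjusted p = 0.0955) without the lines numbered 1 and -0.094 (adjusted p = 0.502) without those numbered 5, and over the 24 alternatives the adjusted p ranged between 0.0955 and 0.597.

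LSS (ENSG00000160285, chromosome 21) closes the ring to lanosterol. It stood at 159, 164, 183, 177 and 182 CPM in VENsens lines 1 to 5 and 152, 147, 131, 158 and 165 CPM in VENins lines 1 to 5. VENins lines 1 to 4 lay below all VENsens lines and VENins line 5 within their range. The test gave a log2 fold change of -0.20 (SE 0.062, adjusted p = 0.145), the smallest adjusted p among the sterol synthesis genes. Without VENins line 5 and the line number in the model the adjusted p was 0.0388, and over the 24 alternatives it ranged between 0.0388 and 0.54.

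CYP51A1 (ENSG00000001630, chromosome 7), which removes a methyl group from lanosterol, was the sterol synthesis gene with the lowest level. It stood at 2.66, 4.12, 3.21, 4.42 and 3.59 CPM in VENsens lines 1 to 5 and 3.10, 2.37, 2.64, 3.38 and 2.40 CPM in VENins lines 1 to 5. The conditions overlapped, and VENsens line 1 was again low. In edgeR this amounted to a log2 fold change of -0.37 (SE 0.15, adjusted p = 0.244). The value is uncertain, since 3 pseudogenes named after it summed to 13.5 CPM against 3.19 CPM for the gene itself. HSD17B7, a later enzyme with 2 pseudogenes that summed to 15.6 CPM, is uncertain in the same way and had a log2 fold change of -0.064 (SE 0.079).

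The late steps that trim the sterol were mostly alike in both conditions. DHCR7 (ENSG00000172893, chromosome 11), which carries out a last reduction to cholesterol, stood at 67.2, 68.5, 76.7, 82.4 and 79.2 CPM in VENsens lines 1 to 5 and 72.1, 68.3, 61.5, 66.1 and 68.7 CPM in VENins lines 1 to 5. VENsens lines 1 and 2 lay among the VENins lines and VENsens lines 3 to 5 above all of them. In edgeR this amounted to a log2 fold change of -0.15 (SE 0.068, adjusted p = 0.294). MSMO1, an oxidase that removes methyl groups, had a log2 fold change of -0.15 (SE 0.075, adjusted p = 0.341), with 134 CPM in VENins line 5, 187, 199, 166 and 156 CPM in VENins lines 1 to 4, and 169 to 207 CPM in VENsens lines. Without the lines numbered 5 its log2 fold change was -0.058 (adjusted p = 0.68), and over the 24 alternatives the adjusted p ranged between 0.0939 and 0.68. The remaining enzymes TM7SF2, LBR, NSDHL, EBP and SC5D, reductases, a dehydrogenase, an isomerase and a desaturase, had log2 fold changes of -0.015, -0.031, -0.0040, -0.015 and 0.0052. None of these 5 values exceeded its SE.

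In the group of sterol uptake, storage and efflux, MYLIP (ENSG00000007944, chromosome 6), a ubiquitin ligase that marks lipoprotein receptors for breakdown, was the gene with the smallest p. It stood at 43.5, 53.9, 46.6, 47.4 and 50.9 CPM in VENsens lines 1 to 5 and 41.9, 42.7, 41.8, 43.5 and 36.9 CPM in VENins lines 1 to 5. All VENins lines lay below all VENsens lines, by a small margin between VENsens line 1 and VENins line 4, and VENins line 5 was the lowest. The means were 48.5 ± 4.02 CPM (± SD, n = 5) for VENsens lines and 41.4 ± 2.58 CPM for VENins lines, a log2 fold change of -0.23 (SE 0.068, adjusted p = 0.137). DESeq2 without the line number gave an adjusted p of 0.0298, and over the 24 alternatives it ranged between 0.0298 and 0.561, under 0.05 in 3 of them.

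The liver X receptor NR1H2 (ENSG00000131408, chromosome 19) had the highest level per transcript length of this group. It stood at 83.9, 75.9, 78.6, 84.5 and 76.2 CPM in VENsens lines 1 to 5 and 73.4, 81.8, 75.3, 77.3 and 94.8 CPM in VENins lines 1 to 5. The conditions overlapped and VENins line 5 was the highest library. The log2 fold change was 0.0082 (SE 0.070). In edgeR without the line number it was 0.013 with all lines and -0.054 without VENins line 5. NR1H3, the second such receptor, had a log2 fold change of 0.0077 (SE 0.088). Its targets, the sterol exporters ABCA1 and ABCG1, were low, with means of 3.84 and 0.672 CPM in VENsens lines. Their log2 fold changes were -0.20 (SE 0.14) and 0.21 (SE 0.25), neither distinguishable from the spread between lines. STARD4, a sterol carrier, had -0.12 (SE 0.091), ranging from -0.27 without the lines numbered 1 to -0.056 over the alternatives, and SOAT1, which esterifies cholesterol for storage, -0.056 (SE 0.067).

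Of fatty acid synthesis all 6 tested genes had log2 fold changes under 0. FASN (ENSG00000169710, chromosome 17), the synthase that builds palmitate, stood at 331, 325, 325, 341 and 335 CPM in VENsens lines 1 to 5 and 279, 258, 236, 293 and 317 CPM in VENins lines 1 to 5. The VENsens lines lay close together, and all VENins lines lay below them with a wider spread, VENins line 5 nearest and VENins line 3 farthest. The means were 331 ± 6.91 CPM (± SD, n = 5) for VENsens lines and 277 ± 31.3 CPM for VENins lines, a log2 fold change of -0.27 (SE 0.058, adjusted p = 0.0666). DESeq2 with the line number gave an adjusted p of 0.00528 at a log2 fold change of -0.27, and over the 24 alternatives the adjusted p ranged between 0.000545 and 0.484, under 0.05 in 7 of them. Without the lines numbered 4 edgeR's adjusted p was 0.0484.

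FADS2 (ENSG00000134824, chromosome 11), a desaturase of polyunsaturated fatty acids, stood at 523, 511, 556, 571 and 564 CPM in VENsens lines 1 to 5 and 463, 472, 450.2, 469 and 611 CPM in VENins lines 1 to 5. VENins lines 1 to 4 lay below all VENsens lines, and VENins line 5 above all of them. The test gave a log2 fold change of -0.15 (SE 0.061, adjusted p = 0.234). Without VENins line 5 and the line number in the model, the log2 fold change was -0.24 and the adjusted p 0.0142, and over the 24 alternatives the adjusted p ranged between 0.0142 and 0.584. With the length and GC trend removed the log2 fold change was -0.093 at an unadjusted p of 0.0519. FADS2 shares 490 exonic bases with FADS1 on the opposite strand, and reads there cannot be assigned to either without strand. FADS1, the desaturase that acts next, had a log2 fold change of -0.047 (SE 0.061) and its lowest library was VENins line 5 at 168 CPM.

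SCD (ENSG00000099194, chromosome 10), which makes monounsaturated fatty acids, stood at 251, 314, 281, 296 and 304 CPM in VENsens lines 1 to 5 and 282, 271, 250.5, 244 and 268 CPM in VENins lines 1 to 5. VENsens line 1 lay among the VENins lines, VENsens line 3 just below VENins line 1, and the other VENsens lines above all VENins lines. In edgeR this amounted to a log2 fold change of -0.13 (SE 0.063, adjusted p = 0.304), and with the length and GC trend removed to -0.072 at an unadjusted p of 0.202. ACLY, which supplies cytosolic acetyl-CoA, and ELOVL6, which lengthens palmitate, had log2 fold changes of -0.040 (SE 0.057) and -0.064 (SE 0.053).

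Levels can be compared between genes only per transcript length, here as mean CPM per kilobase of the longest annotated transcript over the 10 libraries. FDFT1 was highest at 328, above 99.2% of tested protein-coding genes, followed by INSIG1 at 244, SQLE at 146, SREBF2 at 120.0, HMGCS1 at 117, IDI1 at 109, FADS2 at 102 and ACLY at 101 CPM per kilobase. The ranges over the lines of SREBF2, HMGCS1, IDI1, FADS2 and ACLY overlap, though SREBF2 lay above ACLY in every library. SREBF1 stood at 62.8 CPM per kilobase, below SREBF2 in every library. The lowest were CYP51A1 at 0.993, ABCA1 at 0.342 and ABCG1 at 0.209 CPM per kilobase. The place of CYP51A1 is uncertain, since 3 pseudogenes named after it summed to 13.5 CPM against 3.19 CPM for the gene. Whether reads of the gene were lost to them was not tested.

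**Figure D4:**
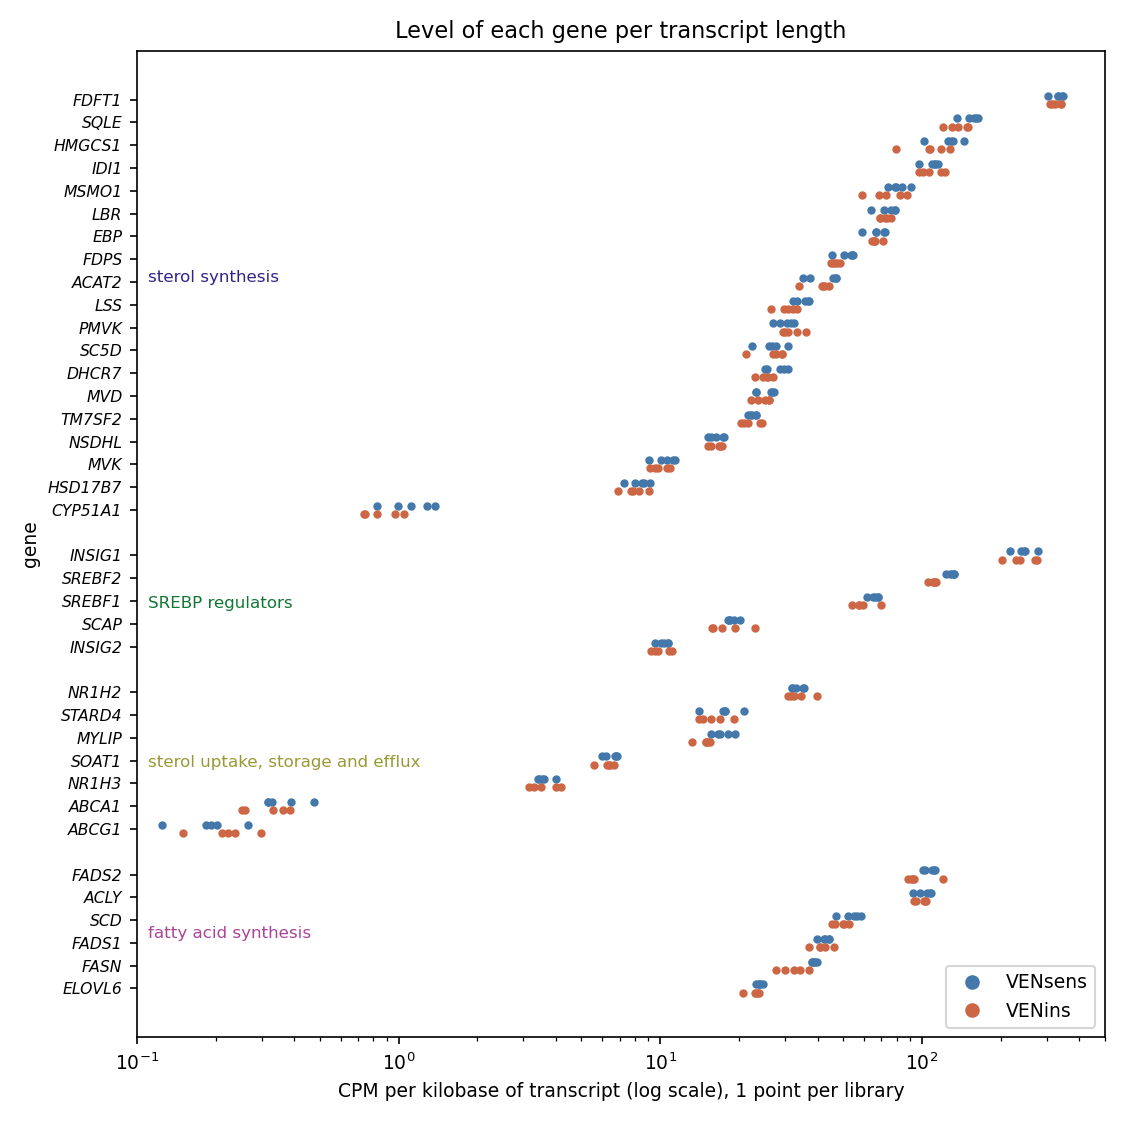
CPM per kilobase of the longest transcript (horizontal axis, log scale) of each tested gene, with 1 point per library in blue for VENsens and orange for VENins lines. The genes span from ABCG1 at 0.209 to FDFT1 at 328 CPM per kilobase on average, and the points of both conditions overlap or lie side by side for every gene.

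Transcript length moved with the comparison across all genes. Among 9881 tested genes with a known transcript length and a mean of 10 CPM or more, the median log2 fold change was 0.089 in the shortest of 5 equal bins of transcript length, then 0.036, 0.0047 and -0.035, and -0.075 in the longest. In the same order, 1.97%, 3.59%, 7.13%, 13.1% and 24.7% of genes were lower with an unadjusted p under 0.05 in edgeR. Of the genes described here, 2, 10, 9, 9 and 3 fell in these bins. The median transcript of the 33 such genes described here was 3185 nt, against 3529 nt for all of them, whereas the fatty acid synthesis genes are longer, with a median of 5217.5 nt. With a trend on transcript length and GC content removed, edgeR gave SREBF2 -0.16 in log2 (adjusted p = 0.117), FASN -0.19 (adjusted p = 0.0831) and MYLIP -0.24 (adjusted p = 0.0634). The group medians were then -0.052 for sterol synthesis, -0.057 for the regulators, -0.010 for uptake, storage and efflux and -0.039 for fatty acid synthesis, against -0.10 before. Of the 6 fatty acid synthesis genes 4 were then lower, with ACLY at 0.0086 and FADS1 at 0.0045, and only FASN kept an unadjusted p under 0.05. Of the 37 genes, 31 were lower and 11 had an unadjusted p under 0.05, all of them lower, against 8.25% lower among all genes in the same fit.

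**Figure D5:**
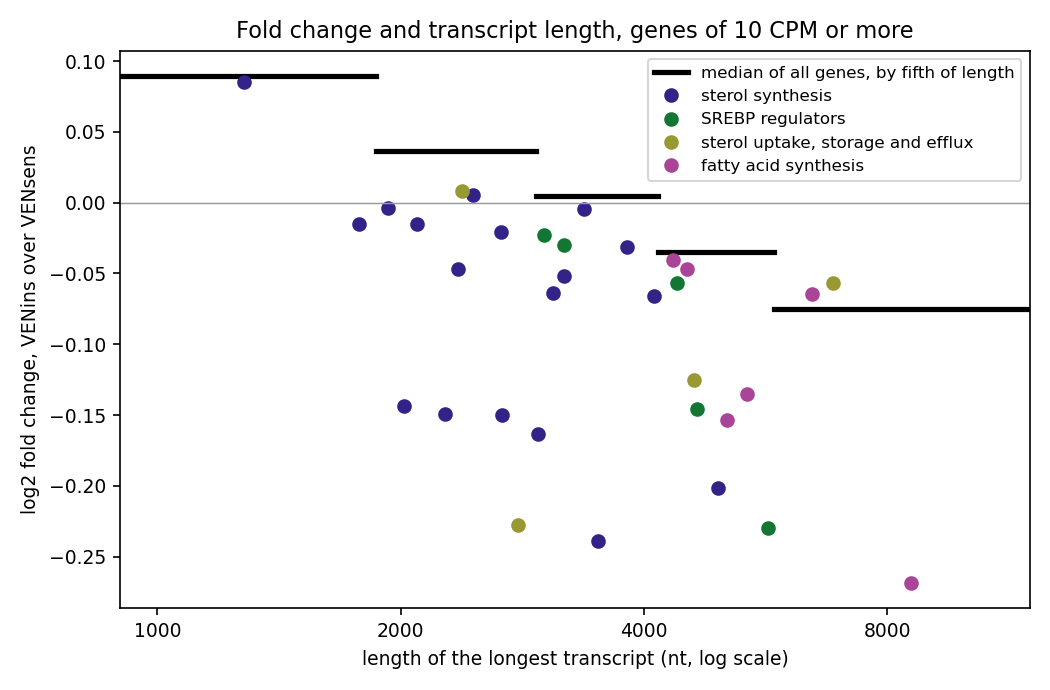
Log2 fold change, VENins over VENsens (vertical axis), against the length of the longest transcript (horizontal axis, log scale) for the 33 genes with a mean of 10 CPM or more, with black lines for the median of all genes in each of 5 equal bins of length. Most points lie below the line of their own bin, and FASN, the longest, lies lowest at -0.27.

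Neighbouring genes of these pathways were read from the same fit, in 5 further lists with 68 tested genes, of which 0 passed edgeR's test and 10 were lower and 2 higher at an unadjusted p under 0.05 (lower 14.7%, against 8.38% of all genes). The proteins that process SREBPs or degrade sterol-regulated proteins lay at -0.028 in the median of log2 fold changes. Of the 12, 8 (66.7%) were lower, against 48.9% of all tested genes. MBTPS2, which makes the second cut that frees SREBPs, had -0.24 (SE 0.081), the ubiquitin ligase RNF145 -0.14 and UFD1 0.17. The isoprenoid branch, which leaves the sterol route after farnesyl diphosphate, lay at 0.060 in the median. Of its 12 genes 9 were higher and 25% lower, against 48.9% lower among all tested genes. COQ2 at 0.16 (SE 0.071) was the 1 with an unadjusted p under 0.05, followed by GGPS1 at 0.096 (SE 0.057) and FNTA at 0.085 (SE 0.053). Sterol transport had a median of -0.0079 over 14 genes, with SCARB1 at -0.13, OSBP at -0.12 and LIPA at -0.12. Fatty acid elongation, activation and supply had a median of -0.042 over 19 genes, with ACSL4 at -0.21, MLXIP at -0.16 and HACD2 at -0.18. Glycerolipid synthesis had a median of -0.042 over 11 genes, with LPIN2 at -0.19, LPIN1 at -0.14 and CEPT1 at -0.15.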

How the data were processed

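RNA from 5 VENsens and 5 VENins RS4;11 lines was made into libraries with a kit that does not mark strand and sequenced as single-end reads. For each library the authors deposited raw read counts per Ensembl gene identifier, without normalization. The submitters' processing notes name bcl2fastq 2.20.0.422, Bowtie2 2.3.5.1, SAMtools 1.9 and HTSeq 0.9.1 with the human build hg19; the strand setting is not given in the sources used here. Bowtie2 does not split reads over introns, and whether it was run on the genome or on transcripts is not given in the sources used here. The expression of ACACA is not analysed here because its GENCODE 29 identifier is not among those counted. Any counts that it has under an older identifier were not matched to its name. Names came from GENCODE 29 (GRCh38), which covered 52526 of 63677 identifiers, and 0.907% of counts carried no name. Lines that name no gene were left out of library sizes. Per library, they held 24.6% to 26.2% of all reads as too low in alignment quality. A further 3.69% to 3.98% were ambiguous between genes.

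The test used edgeR 4.0.16 under R 4.3.3 (filterByExpr with a minimum count of 10, TMM, quasi-likelihood F test with line number and condition), and p-values were adjusted by Benjamini-Hochberg over 16756 genes with a threshold of 0.05. DESeq2 1.42.0, no line number, RLE factors, library size, other count filters, length and GC splines (4 degrees of freedom) and lines left out were alternatives; the spline fit without the line number and the fits that leave out a single line without the line number were added after the values were seen. Standard errors were derived from the F statistic. Tables and plots were made in Python 3.11.15 with pandas 2.3.3 and matplotlib 3.10.9. The steps were tested on simulated data. No libraries of the same condition were duplicates, as chi-square per degree of freedom was 1.93 to 14.4 over 20 pairs. Values in every library are given for genes with an unadjusted p under 0.05, up to 15, for the gene with the highest CPM per kilobase in each group, and for SREBF1, SREBF2, INSIG1 and SCD; of each neighbouring list the 3 with the smallest p are named. The members and lists were chosen with earlier results of these data known.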

Additional observations from a re-analysis of the deposited data

Results flagged for a closer look

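In each condition the line farthest from the others was compared with Dixon's critical value of 0.71 for 5 samples. Of 74 gene and condition pairs, 6 exceeded it, where chance gives 3.7. All 6 are in VENins lines and 5 concern VENins line 5. That line was low for ACAT2, with 108 CPM against 132 to 140.1 CPM in the other VENins lines, for SC5D, with 52.3 CPM against 66.1 to 71.8 CPM in the other VENins lines, for MYLIP, with 36.9 CPM against 41.8 to 43.5 CPM in the other VENins lines, and for ELOVL6, with 134 CPM against 149 to 154 CPM in the other VENins lines. It was high for FADS2, with 611 CPM against 450.2 to 472 CPM in the other VENins lines. VENins line 2 was high for EBP, with 126 CPM against 114 to 117 CPM in the other VENins lines.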

How the results depend on the processing

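The number of genes called depended on the test more than on the scaling. Against 33 genes and 0 of the 37 described here, edgeR without the replicate block called 149 and 1, DESeq2 with the block 219 and 2, DESeq2 without the block 726 and 3, edgeR with no filter on low counts, over 32884 genes, 664 (2.02%) and 4, and the fit with the length and GC trend removed 116 and 0 with the block, while without the block it called 2 of the 37. With the lines of each number left out in turn, 6 to 331 genes (0.0358% to 1.97%) and 0 to 1 of the 37 were called. Lower with an unadjusted p under 0.05 were 13, 8, 4, 5 and 7 of the 37 without the lines numbered 1, 2, 3, 4 and 5, against 8.77%, 4.44%, 7.23%, 7.99% and 8.55% of all genes. The group medians then ranged from -0.12 to -0.021 for sterol synthesis, -0.15 to -0.025 for the regulators, -0.090 to -0.042 for uptake, storage and efflux and -0.13 to -0.075 for fatty acid synthesis. HMGCS1 was called without the lines numbered 1 and FASN without those numbered 4. The cause was not tested.

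The numbers of the lines did not pair them in the data. Deviations of same-numbered lines from their condition means correlated over genes between -0.357 and 0.116, 1 of 5 pairs was over 0.1, and 0 of 10 libraries matched best with their own number. The block was kept because the study's methods state a paired analysis.

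Of the 15 genes given in every library, 12 kept their direction in all settings. FDFT1 was 0.014 without the lines numbered 5 and -0.068 without those numbered 1. INSIG1 was 0.042 without those numbered 4, -0.11 without those numbered 1 and, without the block, 0.032 without VENsens line 2, 0.0038 without VENins line 3 and 0.042 without VENins line 4. NR1H2 was -0.010 and -0.0093 with the length and GC trend removed, with and without the block, 0.058, -0.017 and -0.069 without the lines numbered 1, 2 and 5, and, without the block, -0.0047, -0.0034 and -0.054 without VENsens lines 2 and 5 and VENins line 5. Low counts limit ABCG1, CYP51A1 and ABCA1, with at most 103 counts in a library, and CYP51A1 is also uncertain because of its pseudogenes.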
